A study of Homo sapiens with 12 samples.

Results

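The genes described here encode subunits of phosphatidylinositol 3-kinase (PI3K) and its inhibitor PIK3IP1, measured in synovial sarcoma (SS) cells exposed to a PI3K inhibitor. The 8 genes are PIK3CB, PIK3CD, PIK3R1, PIK3R2, PIK3R3, PIK3C2A, PIK3C2B and PIK3IP1, and every probe set that the array annotation names with exactly 1 symbol, that of one of these genes, was taken. This gave 22 of the 54675 probe sets of the Affymetrix U133 Plus 2.0 array. A probe set is a group of short probes for one transcript, mostly near its 3′ end. No probe set carried the symbol PIK3R2, so 7 genes were described, of the 19775 that the annotation names. The cells were 4 established human SS lines (Fuji, Aska-SS, Yamato-SS and SYO-1), grown in RPMI-1640 medium with fetal bovine serum. Each line received 0 (the control), 0.3 or 3 µM ZSTK474, a pan-PI3K inhibitor, for 24 h, and RNA of each line and dose was hybridized to 1 array, 12 in all. The 4 lines therefore served as the replicates of a dose, the labels do not state whether the cultures were set up separately, and 12 arrays set a limit to the precision.

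Class I PI3K works as a pair of proteins. A catalytic subunit phosphorylates a membrane lipid to phosphatidylinositol trisphosphate, and a regulatory subunit holds the catalytic one stable and inhibited until a receptor or adaptor with phosphorylated tyrosines binds it. Of the genes here, PIK3CB and PIK3CD encode the beta and delta catalytic isoforms, and PIK3R1, PIK3R2 and PIK3R3 encode regulatory subunits. PIK3C2A and PIK3C2B encode class II enzymes, single-chain kinases that make other phosphoinositides on endosomes and at sites of endocytosis. PIK3IP1 is a transmembrane protein that binds the catalytic subunit and lowers class I activity. SS is a soft tissue sarcoma whose tumour cells carry the SS18-SSX fusion gene.

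Signals are MAS5 intensities after quantile normalization, which gives all arrays one distribution, and a signal of one probe set cannot be set against that of another. Changes are differences of log2 signals fitted by limma, with each line as its own block, and a probe set passed where its p, adjusted by the Benjamini-Hochberg method over 27306 probe sets, was below 0.05. Probe sets whose mean signal lay below 65.1 were not tested, and 18 of the 22 lay above it. Of the 15 SS marker genes 10 were tested, among them TLE1 with signals of 7260.2 to 24076 and SSX1, while KRT19 was at the floor of 12.1 in 11 of the 12 arrays. Of the 12 leukocyte markers 2 were tested, CD79A, which exceeded the filter in all 12 arrays, and LAPTM5, which did so in 7. PTPRC, LCP2 and HCLS1 did not exceed the filter in any array and CD14 was at the floor in all 12. Among the other untested leukocyte markers, CSF1R exceeded the filter in 6 arrays, CD3E in 5, CD2 in 3, MS4A1 in 2 and ITGAM in 1. Of the 6 endothelial markers 1 was tested, PECAM1, which exceeded the filter in all 12 arrays. KDR and CDH5 exceeded it in 3 arrays each, TEK in 1, and VWF and CLDN5 in 0. The ratio of 3′ to 5′ probe signal for ACTB, a measure of RNA integrity, rose on the log2 scale by 0.12 to 0.21 at 3 µM in SYO-1, Aska-SS and Yamato-SS and by 0.59 in Fuji. The same ratio for GAPDH changed by 0.032 in Fuji, -0.13 in Aska-SS, 0.15 in Yamato-SS and 0.035 in SYO-1.

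The comparison of 3 µM with 0 µM asked how transcripts of these PI3K subunit genes and PIK3IP1 changed. These genes are only a part of the PI3K genes and are not the full set of the drug's targets. PIK3R3 fell to 0.337 times its untreated signal, PIK3CD rose 2.07-fold by its brighter probe set, and PIK3IP1 rose 1.75-fold by its brighter probe set. The dimmer PIK3CD probe set did not rise (log2 change -0.22, not passed). The call of the brighter PIK3IP1 probe set was lost without Fuji and without Aska-SS. The dimmer PIK3IP1 probe set also rose, by 7.30-fold or, with a higher floor on low signals, by 3.53-fold, since its untreated signals all lay below the filter described above. The brightest probe sets of PIK3CB, PIK3R1, PIK3C2A and PIK3C2B did not pass the test. Of the 18 tested probe sets 4 rose, which is 22.2%, and 19.6% of all tested probe sets rose. Another 3 fell, which is 16.7%, and 19.8% of all fell. Both shares lay near those of the whole array. The median log2 change of the 18 was -0.24, against 0.0011 over all tested probe sets. PIK3C2A gave 6 of the 18 and PIK3R1 3, so this median weighs a few genes heavily and does not show a fall of the 7 genes together. By the brightest probe sets the log2 changes ran from -1.57 for PIK3R3 to 1.05 for PIK3CD. Taking the brightest probe set for each of the 7 genes, 2 rose and 1 fell, where 22.5% of 12132 genes taken in this way rose and 21.0% fell. Arrays of whole cultures were compared, so fewer cells with a transcript and less transcript per cell cannot be told apart.

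**Figure D1:**
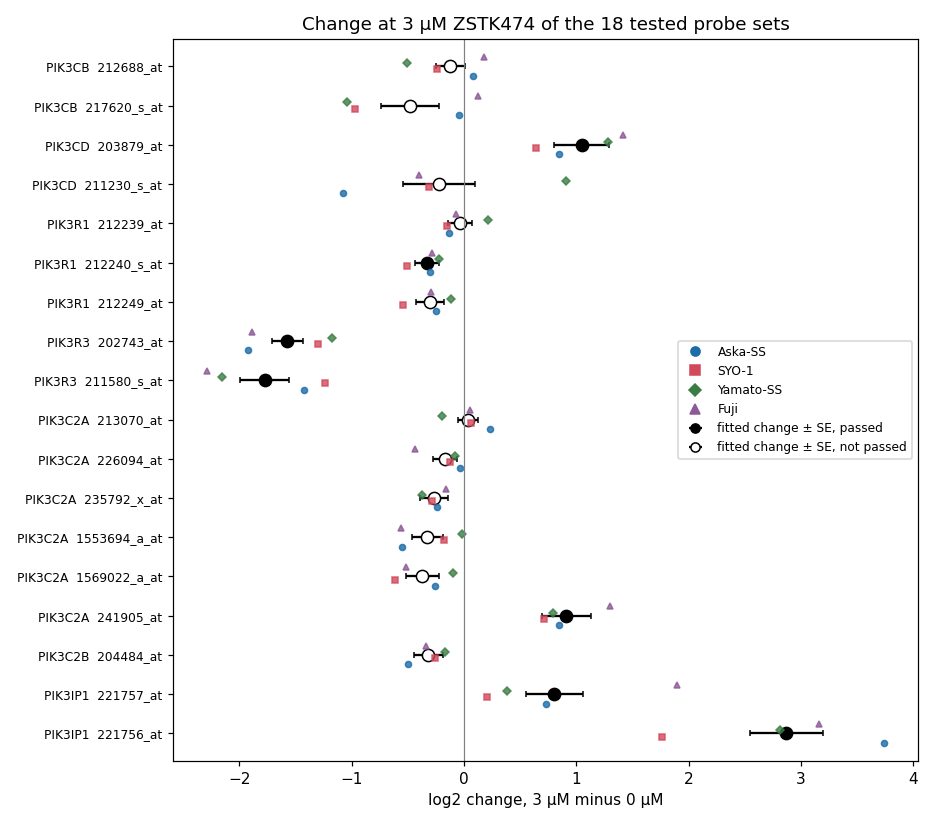
Log2 change from 0 to 3 µM ZSTK474 of the 18 tested probe sets. Small coloured symbols are the 4 cell lines and circles with bars are the fitted change ± SE, black where the adjusted p was below 0.05. Both PIK3R3 probe sets lie left of 0 in all 4 lines, and PIK3CD 203879_at, PIK3C2A 241905_at and both PIK3IP1 probe sets lie right of 0 in all 4 lines.

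Promoter sequence is shown for the 3 genes whose brightest probe set passed at 3 µM. RefSeq lists several start sites for each, and the site whose window has the highest GC content is printed, as the 250 bases before the start, 5′ to 3′ on the strand of the gene, in GRCh38.p14. All 3 genes had their windows searched on both strands for the forkhead motif GTAAACA, the E-box CACGTG and the E2F motif (TTTCGCGC, TTTGGCGC or TTTCCCGC), and capitals would mark a match.
PIK3R3, chr1:46132796-46133045, minus strand: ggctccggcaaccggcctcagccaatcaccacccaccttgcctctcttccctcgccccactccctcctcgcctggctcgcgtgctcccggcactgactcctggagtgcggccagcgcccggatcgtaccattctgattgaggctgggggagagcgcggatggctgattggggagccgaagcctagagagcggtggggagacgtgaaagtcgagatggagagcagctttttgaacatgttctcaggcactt
PIK3CD, chr1:9689294-9689543, plus strand: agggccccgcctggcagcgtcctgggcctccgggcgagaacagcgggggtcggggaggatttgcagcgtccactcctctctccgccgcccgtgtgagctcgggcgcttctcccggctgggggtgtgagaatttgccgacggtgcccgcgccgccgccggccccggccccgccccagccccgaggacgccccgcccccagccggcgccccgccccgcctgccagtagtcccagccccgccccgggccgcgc
PIK3IP1, chr22:31292489-31292738, minus strand: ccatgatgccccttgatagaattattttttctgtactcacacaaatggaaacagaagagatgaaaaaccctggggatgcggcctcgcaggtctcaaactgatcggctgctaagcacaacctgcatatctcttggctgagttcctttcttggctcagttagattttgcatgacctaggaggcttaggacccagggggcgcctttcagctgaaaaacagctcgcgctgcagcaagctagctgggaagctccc
None of the 3 printed stretches held a match. The window of the PIK3CD start had 80.0% GC and 40 CG dinucleotides, that of PIK3R3 64.0% and 23, and that of PIK3IP1 49.7% and 6, where the median window in the table has 58.7% GC. The searched windows run on to 50 bases from the start, 300 bases in all, and the 8 genes have 20 of them. A match was found in 1 window, that of the same PIK3IP1 start, where the forkhead motif lies on the opposite strand at chr22:31292466-31292472, with capitals for the match and 8 bases on each side.
PIK3IP1 forkhead match: agagaggcTGTTTACcagaacag
Over all 35116 windows in the table, 3.42% hold the forkhead motif, 7.26% the E-box and 2.74% an E2F motif, the E2F forms being counted together. A match of letters is a description of the sequence and no measure of binding.

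PIK3R3 encodes the gamma regulatory subunit, a short form without the N-terminal part that the products of PIK3R1 and PIK3R2 can carry. It had the largest fall among the brightest probe sets of the 7 genes. Without drug the brighter PIK3R3 probe set, 202743_at, had signals of 3466 in Fuji, 1349 in Aska-SS, 1766 in Yamato-SS and 1203 in SYO-1. At 0.3 µM these were 3109.7, 888, 1683 and 1203 in the same order. At 3 µM they were 937, 356, 785 and 488, and every signal at 3 µM lay below every untreated one. Fuji had the highest signal at each dose and Aska-SS at 3 µM the lowest. The log2 change at 3 µM was -1.57 (SE 0.14, limma adjusted p = 1.37e-05), and the 4 lines ranged from -1.92 in Aska-SS to -1.17 in Yamato-SS. Among 12132 genes PIK3R3 ranked 71 by the size of its fall.

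The other PIK3R3 probe set, 211580_s_at, moved in the same direction at lower signal. Its untreated signals were 452 in Fuji, 131 in Aska-SS, 226 in Yamato-SS and 198 in SYO-1, and at 3 µM they were 92.7, 49.1, 51.0 and 84.1. Again no signal at 3 µM reached an untreated one. The log2 change was -1.77 (SE 0.22, limma adjusted p = 7.88e-05), and it differed from that of 202743_at by -0.20 with an adjusted p of 0.584 for the difference. Leaving out any 1 cell line kept both probe sets past the threshold, with changes of -1.70 to -1.45 for 202743_at and -1.95 to -1.60 for 211580_s_at.

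PIK3R1 encodes the alpha regulatory subunit, the most widely expressed of the regulatory subunits. Its brightest probe set, 212239_at, stayed within a narrow range. The untreated signals were 2528 in Fuji, 2538 in Aska-SS, 2000.0 in Yamato-SS and 2071 in SYO-1. With 0.3 µM they read 3017, 2404, 1884 and 1687 in that order. With 3 µM they read 2404, 2321, 2318 and 1864. Treated and untreated signals overlapped, and the log2 change at 3 µM was -0.035 (SE 0.11, limma adjusted p = 0.823), lower in 3 of 4 lines.

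The remaining PIK3R1 probe sets gave lower values at 3 µM in 4 of 4 lines. Probe set 212240_s_at read 2793 in Fuji, 1502 in Aska-SS, 728 in Yamato-SS and 698 in SYO-1 without drug. At 0.3 µM it read 3951, 1513, 762 and 738, and at 3 µM 2296, 1215, 625 and 493. Within each line the 3 µM signal was the lowest of the 3, but the lines differed so much that the dose groups overlapped. It fell by 0.33 on the log2 scale (SE 0.11, limma adjusted p = 0.0313). The call was lost without Aska-SS and without SYO-1, where the change was -0.34 and -0.27. For 212249_at the change was -0.30 (SE 0.12, limma adjusted p = 0.0757). The changes of both probe sets differed from that of 212239_at by -0.29 and -0.26, with adjusted p-values of 0.0926 and 0.264 for these differences, so a difference within PIK3R1 was not shown.

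Of the catalytic subunits, PIK3CD encodes the delta isoform, best known from leukocytes, where it acts downstream of antigen and cytokine receptors. Its brighter probe set, 203879_at, had untreated signals of 251 in Fuji, 65.7 in Aska-SS, 50.2 in Yamato-SS and 196 in SYO-1. Cells given 0.3 µM had signals of 286, 117, 43.1 and 265. Cells given 3 µM had signals of 669, 118, 122 and 307. The untreated and 3 µM groups overlapped because SYO-1 and Fuji started above the treated level of Aska-SS and Yamato-SS, but each line was higher at 3 µM than without drug. The log2 change was 1.05 (SE 0.24, limma adjusted p = 0.00483), from 0.65 in SYO-1 to 1.42 in Fuji. PIK3CD ranked 377 of 12132 genes by the size of its rise, and its call held when any 1 line was left out, with changes of 0.92 to 1.18.

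The summed signal of the 12 leukocyte markers ran from 572 to 3037 without drug and from 551 to 2487 at 3 µM over the lines, and neither tested marker, CD79A and LAPTM5, passed (log2 changes -0.24 and 0.44, limma adjusted p = 0.476 and 0.555). LAPTM5 made up most of the upper end, at 2056 to 2354 in Yamato-SS. The dimmer PIK3CD probe set, 211230_s_at, did not pass. Its signals ran from 37.6 to 119 over all 12 arrays, and its log2 change at 3 µM was -0.22 (SE 0.32, limma adjusted p = 0.622), lower in 3 lines and higher in Yamato-SS. The change of 211230_s_at was 1.27 lower on the log2 scale than that of 203879_at (difference -1.27, SE 0.31, limma adjusted p = 0.037). This was a test of each dimmer probe set of a gene against the gene's brightest, run over 11076 probe sets after the values were seen, and 10.0% of them passed it. Of the 11 such probe sets of the genes here 3 passed. With the mean of both PIK3CD probe sets in place of the brighter one, the change was 0.41 and did not pass (limma adjusted p = 0.159).

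PIK3CB encodes the beta isoform, which is expressed in most tissues and is also engaged by G-protein-coupled receptors. Probe set 212688_at read 429 in Fuji, 931 in Aska-SS, 862 in Yamato-SS and 729.8 in SYO-1 in untreated cells. Under 0.3 µM it read 432, 1010.2, 833 and 668. Under 3 µM it read 486, 983, 607 and 619.9. The signal was higher in Aska-SS and Fuji and lower in SYO-1 and Yamato-SS at 3 µM, and the log2 change over the lines was -0.12 (SE 0.13, limma adjusted p = 0.482). The second probe set, 217620_s_at, changed by -0.48 (SE 0.26, limma adjusted p = 0.165), with -0.97 in SYO-1 and -1.04 in Yamato-SS but -0.040 in Aska-SS and 0.13 in Fuji.

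**Figure D2:**
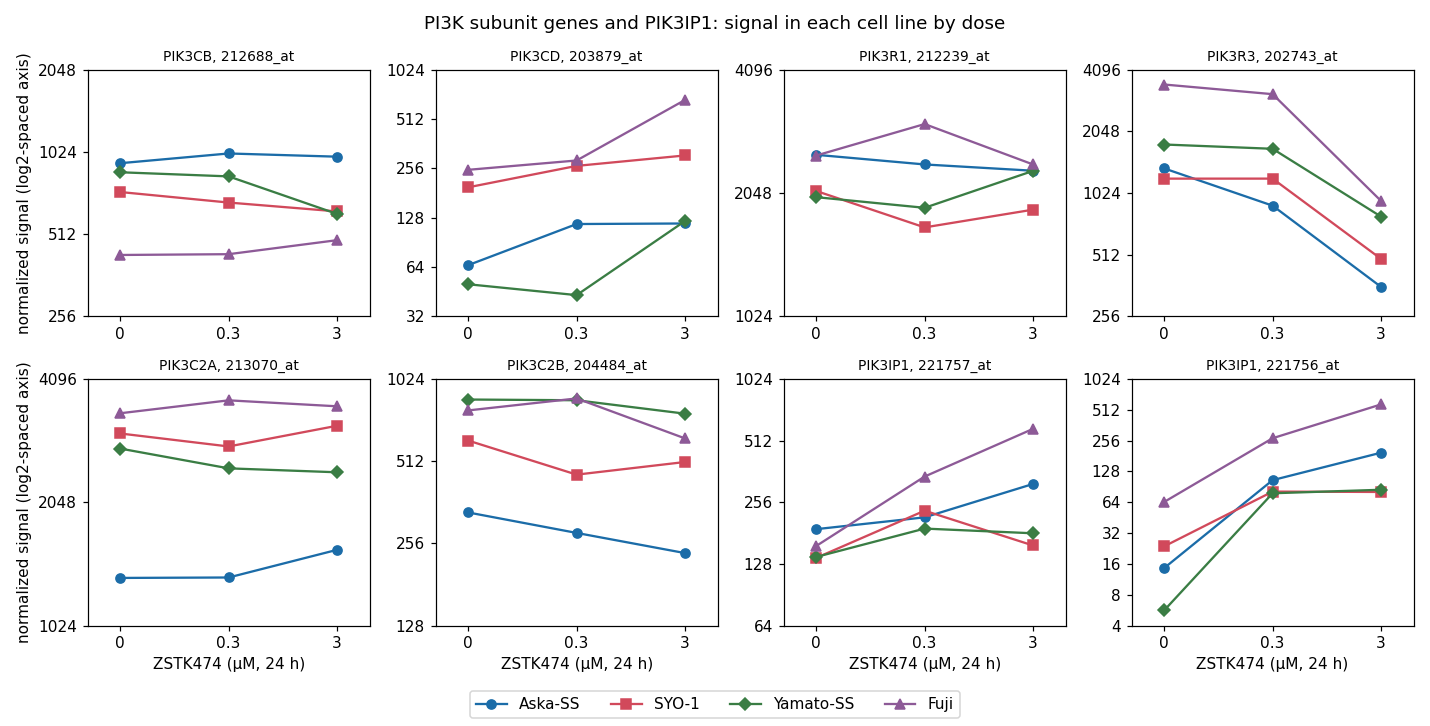
Normalized signal (log2-spaced axis) against ZSTK474 dose in µM for the brightest probe set of each of the 7 genes and for PIK3IP1 221756_at, 1 point per array, joined within each cell line. PIK3R3 drops between 0.3 and 3 µM in all 4 lines, PIK3IP1 221756_at climbs between 0 and 0.3 µM in all 4 lines, and the PIK3CB, PIK3R1 and PIK3C2A lines run without a common direction.

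Of the class II enzymes, PIK3C2A has the largest number of probe sets here, 9, of which 6 were tested. Its product binds clathrin and acts in endocytosis and at the primary cilium. The brightest, 213070_at, had signals of 3379 in Fuji, 1339 in Aska-SS, 2770.0 in Yamato-SS and 3015 in SYO-1 before any drug. Those at 0.3 µM were 3633, 1342, 2479 and 2803. Those at 3 µM were 3514, 1568, 2424 and 3149. Aska-SS stayed below the other lines at every dose, and the log2 change at 3 µM was 0.039 (SE 0.087, limma adjusted p = 0.757).

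The PIK3C2A probe set 241905_at rose. It read 93.9 in Fuji, 63.5 in Aska-SS, 116 in Yamato-SS and 85.7 in SYO-1 at 0 µM. It then read 190.2, 68.3, 119 and 117 at 0.3 µM and 231, 114, 201 and 140.4 at 3 µM. Every line went up at each dose step, and the 0 and 3 µM groups overlapped only through Aska-SS at 3 µM and Yamato-SS at 0 µM. The log2 change at 3 µM was 0.91 (SE 0.21, limma adjusted p = 0.00508), which was 0.87 more than that of 213070_at (SE 0.17, limma adjusted p = 0.0199 for the difference). The other 4 tested PIK3C2A probe sets changed by -0.37 to -0.17 with adjusted p-values of 0.0607 to 0.229, and each was lower in 4 of 4 lines. The 3 untested ones had signals of at most 72.6.

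PIK3C2B encodes the other class II enzyme expressed in many tissues and has 1 probe set, 204484_at. Its untreated signals were 786 in Fuji, 332 in Aska-SS, 861 in Yamato-SS and 609 in SYO-1. The 0.3 µM signals were 869, 279.6, 856 and 457, and the 3 µM signals 621, 236, 764 and 509. All 4 lines were lower at 3 µM than without drug, but the log2 change of -0.32 (SE 0.13) missed the threshold (limma adjusted p = 0.0648).

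Of the PIK3IP1 probe sets, the dimmer one, 221756_at, had the larger change. Probe set 221756_at read 64.6 in Fuji, 14.6 in Aska-SS, 5.64 in Yamato-SS and 23.8 in SYO-1 in the control arrays. With 0.3 µM it reached 270.4, 105, 78.4 and 81.4, and with 3 µM 578, 195, 84.8 and 80.7. Every treated signal lay above every untreated one, at both doses. All 4 untreated signals lay below the filter of 65.1, so the probe set was tested because of its treated arrays, and the Yamato-SS control was raised to the floor of 12.1. The log2 change was 2.87 at 3 µM (SE 0.32, limma adjusted p = 4.70e-05), from 1.76 in SYO-1 to 3.74 in Aska-SS. With the floor raised to the 40th percentile of all signals it was 1.82, so its size depends on how low signals are treated.

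The brighter PIK3IP1 probe set, 221757_at, changed less. Its signals without drug were 157 in Fuji, 189 in Aska-SS, 139 in Yamato-SS and 137 in SYO-1. They were 342, 216, 191 and 233 at 0.3 µM and 584, 315, 181 and 158 at 3 µM. At 0.3 µM all 4 lines lay above the highest untreated signal, and at 3 µM SYO-1 and Yamato-SS lay below it again. The log2 change at 3 µM was 0.80 (SE 0.25, limma adjusted p = 0.0232), with 1.90 in Fuji and 0.20 in SYO-1. Without Fuji it was 0.44 and without Aska-SS 0.83, and neither passed (limma adjusted p = 0.163 and 0.066). Fuji was also the line with the largest shift of the ACTB ratio, though not of the GAPDH ratio, and the part of either in this value was not tested. The change of 221756_at exceeded that of 221757_at by 2.06 on the log2 scale (SE 0.30, limma adjusted p = 0.00929). Probe set 221756_at was in this test only through its treated arrays, so the p-value is no support for a difference. With the floor at the 40th percentile the changes were 1.82 and 0.80, so the size of the difference depends on how low signals are treated. The difference was not tested with that floor. The third PIK3IP1 probe set, 1555632_at, was not tested and had signals of 15.0 to 70.6.

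The lower dose was compared with 0 µM to see which of these changes were present at the lower concentration. At 0.3 µM 1 of the 18 probe sets rose, PIK3IP1 221756_at, where 3.08% of all tested probe sets rose and 2.24% fell. By the brightest probe sets 0 of the 7 genes passed at 0.3 µM with limma. The log2 change of 221756_at was 2.35 (SE 0.32, limma adjusted p = 0.00842, higher in 4 of 4 lines), or 5.09-fold, over untreated signals below the filter. With the floor at the 40th percentile it was 1.30, or 2.46-fold. The probe set had passed the filter only through its treated arrays, and with no filter its call was lost (limma adjusted p = 0.0563). It passed in 7 of 12 alternatives, and the call was also lost without Aska-SS and without Fuji, with changes of 2.18 and 2.44. PIK3IP1 221757_at changed by 0.64 (SE 0.25, limma adjusted p = 0.146), higher in 4 of 4 lines. PIK3R3 202743_at changed by -0.21 (limma adjusted p = 0.387), with -0.60 in Aska-SS and 0.00034 in SYO-1. PIK3R3 211580_s_at was lower in 4 of 4 lines without passing, with a log2 change of -0.41 (SE 0.22, limma adjusted p = 0.265). PIK3CD 203879_at changed by 0.31 (limma adjusted p = 0.474), higher in 3 of 4 lines and lower in Yamato-SS. The median log2 change of the 18 probe sets was -0.056, and 2 had an unadjusted p under 0.05.

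**Figure D3:**
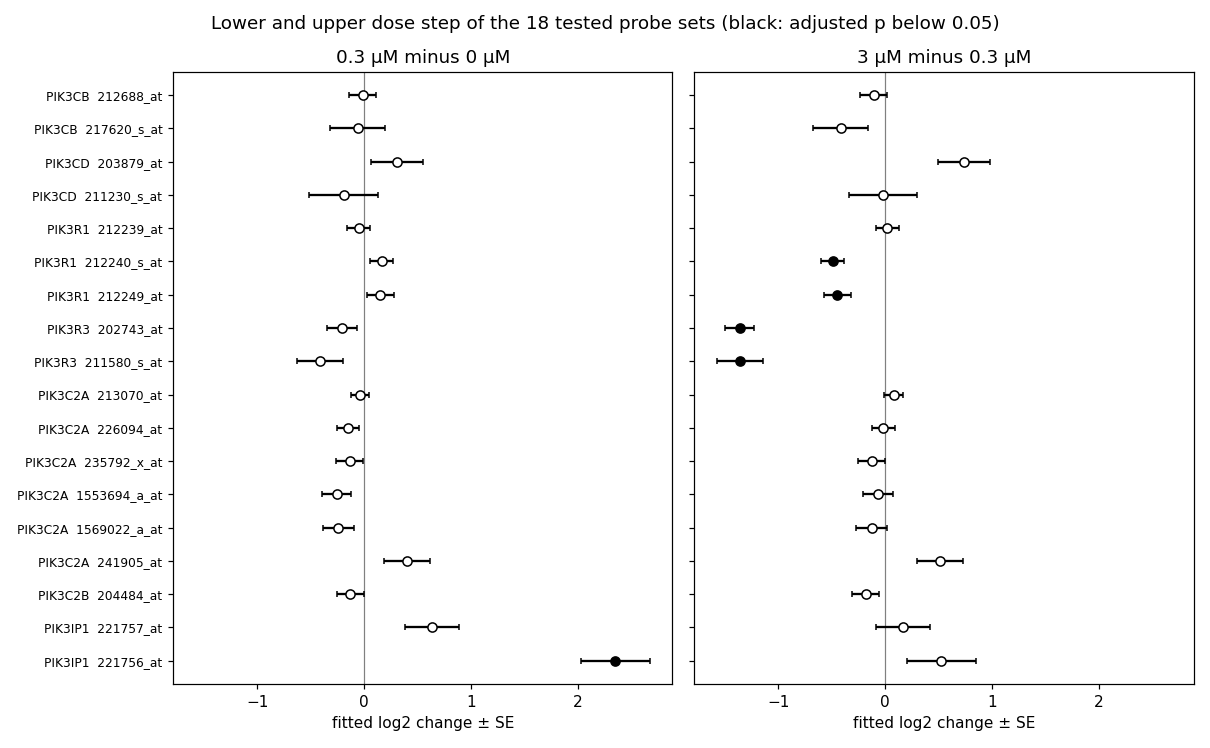
Fitted log2 change ± SE of the 18 tested probe sets from 0 to 0.3 µM (left) and from 0.3 to 3 µM (right), black where the adjusted p was below 0.05. PIK3IP1 221756_at passed only in the left panel, and both PIK3R3 probe sets and PIK3R1 212240_s_at and 212249_at passed only in the right panel.

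The step from 0.3 to 3 µM tested the difference between the doses directly. None of the 18 probe sets rose by limma, where 4.98% of all tested probe sets did, and 4 fell, where 6.53% of all did. An unadjusted p under 0.05 was found for 6 of the 18. PIK3R3 fell in this step, by log2 changes of -1.36 for 202743_at (SE 0.14, limma adjusted p = 0.00124) and -1.36 for 211580_s_at (SE 0.22, limma adjusted p = 0.00398), each lower in 4 of 4 lines. PIK3R3 ranked 21 of 12132 genes by its fall here. The remaining 2 were PIK3R1 212240_s_at at -0.49 (limma adjusted p = 0.015) and 212249_at at -0.45 (limma adjusted p = 0.0373), each lower in 4 of 4 lines. Both had been higher at 0.3 µM than at 0 µM without passing, by 0.16 and 0.15. The call of 212240_s_at was lost without Aska-SS, SYO-1 or Fuji and that of 212249_at without any 1 of the 4 lines. Over all 4 ways of leaving out 1 line, the changes were -0.56 to -0.40 and -0.54 to -0.32. PIK3CD 203879_at changed by 0.74 in this step (limma adjusted p = 0.0713), of which 1.5 was seen in Yamato-SS, 1.23 in Fuji and 0.011 in Aska-SS. For PIK3IP1 221756_at the step was 0.52 (SE 0.32, limma adjusted p = 0.333), and a difference between the doses was not shown.

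The 4 lines were then compared over all doses, with dose as a factor, so that the 3 arrays of a line stand for its spread. Of the 18 probe sets 16 differed between the lines by the F-test, which is 88.9%, where 76.3% of all tested probe sets did. The exceptions were PIK3CB 217620_s_at and PIK3CD 211230_s_at. The brightest probe set differed for all 7 genes. Aska-SS and SYO-1 differed in 11 of the 18 probe sets (49.2% of all probe sets), Aska-SS and Yamato-SS in 10 (55.7%), and Aska-SS and Fuji in 14 (40.8%). SYO-1 and Yamato-SS differed in 3 (46.4%), SYO-1 and Fuji in 9 (40.8%), and Yamato-SS and Fuji in 11 (52.9%).

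**Figure D4:**
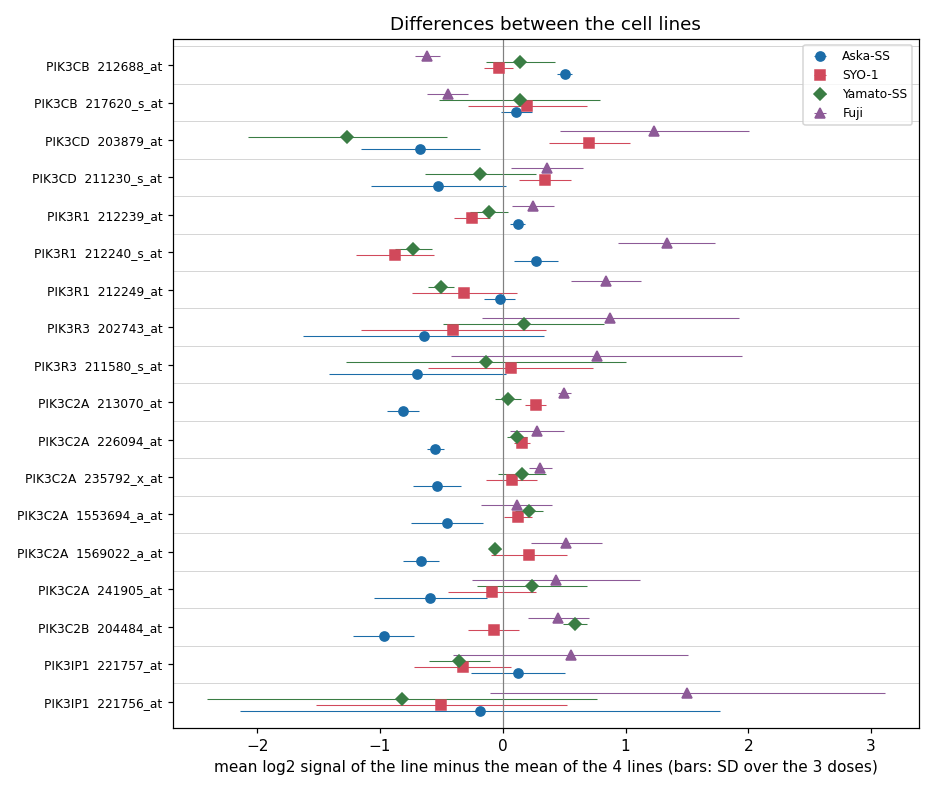
Mean log2 signal of each cell line over the 3 doses minus the mean of the 4 lines, for the 18 tested probe sets, with bars for the SD over the 3 doses. Aska-SS lies lowest for all 6 PIK3C2A probe sets and for PIK3C2B, and Fuji lies highest for all PIK3R1, PIK3R3 and PIK3IP1 probe sets.

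PIK3CB was highest in Aska-SS and lowest in Fuji, 2.17-fold apart, and of the neighbours in the order Aska-SS, Yamato-SS, SYO-1 and Fuji only SYO-1 and Fuji passed (limma adjusted p = 0.00681). PIK3CD 203879_at was highest in Fuji, followed by SYO-1, Aska-SS and Yamato-SS, with 5.66-fold from the lowest to the highest. In that order SYO-1 and Aska-SS differed (limma adjusted p = 0.0014), while the remaining neighbours did not pass. The order of PIK3R1 212239_at was Fuji, Aska-SS, Yamato-SS and SYO-1 over a range of 1.41-fold, and no neighbours passed. Fuji against SYO-1 passed (limma adjusted p = 0.00634) but not without the arrays at 0.3 µM (limma adjusted p = 0.187). For PIK3R1 212240_s_at the range was 4.64-fold, Fuji lay above Aska-SS and Aska-SS above Yamato-SS (limma adjusted p = 2.55e-05 and 2.50e-05).

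PIK3R3 202743_at followed the order Fuji, Yamato-SS, SYO-1 and Aska-SS over 2.87-fold, and of these neighbours only SYO-1 and Aska-SS did not pass (limma adjusted p = 0.23). PIK3C2A 213070_at ran from Fuji over SYO-1 and Yamato-SS to Aska-SS over 2.48-fold, and Aska-SS differed from Yamato-SS above it (limma adjusted p = 1.33e-05). PIK3C2B was highest in Yamato-SS and Fuji, which did not pass against each other (limma adjusted p = 0.456), then SYO-1, then Aska-SS, over 2.95-fold. PIK3IP1 221757_at spanned 1.87-fold from Fuji to Yamato-SS (limma adjusted p = 0.0193), and no neighbours in the order Fuji, Aska-SS, SYO-1 and Yamato-SS passed. That Fuji and Yamato-SS difference did not pass without the arrays at 0.3 µM or at 3 µM.

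Genes whose brightest probe sets followed those of the members most closely were ranked by Pearson's r over the 12 arrays, with each line's mean taken out, as a description. The nearest to PIK3R3 were COPB2, a coatomer subunit (r = 0.984), UBA1, the main ubiquitin-activating enzyme (r = 0.984), and SMARCA4, a chromatin remodelling ATPase (r = 0.982). The nearest to PIK3CD were MPST (r = 0.960), RNF13 (r = 0.960) and TMEM219 (r = 0.954). The nearest to PIK3IP1 221757_at were ZNF431 (r = 0.976), TANK (r = 0.955) and FAM120A (r = 0.951). For PIK3CB they were PSTPIP2, AKTIP and FNIP2 with r = 0.963 to 0.923, for PIK3R1 RUSF1, DXO and INO80 with 0.888 to 0.860, for PIK3C2A FBXL21P, NACA and JDP2 with 0.923 to 0.905, and for PIK3C2B ELK2AP, ZNF526 and LTO1 with 0.943 to 0.913. Between members PIK3CD and PIK3R3 had r = -0.847 and PIK3CD and PIK3C2B r = -0.773, while PIK3R3 and PIK3C2B had r = 0.772. These arrays share the 3 doses, so a gene that follows the dose correlates with any other that does.

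For the pathway lists below each gene is given by its brightest probe set, and the shares to set beside the counts are the 22.5% of all genes that rose and the 21.0% that fell at 3 µM. The other PI3K genes on a list of 7 included 3 that were tested at 3 µM. PIK3C3, the class III catalytic subunit that works in autophagy and endosomal sorting, rose (log2 change 0.74, SE 0.11, limma adjusted p = 0.000299), and PIK3R4, its regulatory partner, fell (-0.36, SE 0.11, limma adjusted p = 0.0236). PIK3R5, a regulatory subunit of the G-protein-coupled class I enzyme, changed by -0.54 without passing (limma adjusted p = 0.113). The next list held phosphatases that act on the products of PI3K or on other inositol lipids and phosphates. Of 16 tested, 4 rose (25%) and 2 fell (12.5%) with a median of 0.030, including MTMR3 (0.40), INPPL1 (0.41), INPP4A (0.50) and INPP4B (0.45). Of 14 tested genes of phosphoinositide synthesis 4 rose (28.6%) and 2 fell (14.3%) with a median of -0.043, among them CDIPT, which makes phosphatidylinositol (0.91), PIP4K2B (0.57), CDS2 (0.55) and PIKFYVE (0.35).

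Of 26 tested receptors, adaptors and small G proteins that recruit class I PI3K, 11 rose (42.3%) and 3 fell (11.5%) with a median of 0.27. IGF1R changed by 2.23, PDGFRA by 1.22, GAB1 by 1.18 and EGFR by 0.88, all of them higher in 4 of 4 lines and past the threshold. The untreated IGF1R signals of Aska-SS and Fuji, 29.1 and 33.2, lay below the filter, so the size of its change rests partly on low signals. Of 19 tested effectors that bind the lipid products or act directly after them, 8 rose (42.1%) and 2 fell (10.5%) with a median of -0.0055, including CYTH2 (0.81), GAB1, PDPK1 (0.42) and AKT1 (-0.57). The shares over all genes were 22.5% and 21.0%, and the median over all tested probe sets was 0.0011. The lists were not tested as lists. They were chosen with earlier results of these data known, so their shares are no support for a rise of a list. GAB1 was counted both among the receptors and adaptors and among the effectors.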

How the data were processed

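RNA of 4 cell lines at 3 doses was measured on 12 arrays. The deposited files hold linear signal intensities that the authors made with MAS5, per the submitters' processing notes, with a 2% trimmed mean of 500.1 per array and no detection calls. The MAS5 version was not given in the sources used here. The methods name quantile normalization in GeneSpring, but the medians of the deposited columns differ (60.1 to 85.3), so the arrays were quantile normalized before any test.

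The floor was the 20th percentile of all signals (12.1), log2 was taken, and probe sets with a mean above the median of all were tested. Limma 3.58.1 in R 4.3.3 fitted dose and cell line with moderated variances. The line comparison used the same arrays with dose as a factor. The lines pair the arrays: after the dose means were taken out, arrays correlated with r = 0.788 to 0.907 within a line and -0.415 to -0.103 between lines. P-values of the dose comparisons rest on how much the changes within the lines differ from line to line. Those of the line comparison rest on the spread of a line's arrays over the doses, with the dose means taken out. The fit was tested on simulated data.

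All member probe sets are named, the brightest standing for its gene, with the 3 nearest genes of each and the 4 smallest adjusted p-values of each pathway list. The members and lists were chosen with earlier results of these data known. The test between probe sets of a gene was added after the data were seen. Symbols come from the platform annotation, in which 41097 of 54675 probe sets have 1 symbol, 1801 several and 11777 none. Promoters of all 8 genes were matched by symbol in RefSeq (GRCh38.p14), and the deposited values name no build. Alternatives covered normalization, floor, filter, probe set summary, block, arrays used, array weights, variance moderation and leaving out 1 line at a time. Some items are not reported here.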

Additional observations from a re-analysis of the deposited data

Results flagged for a closer look

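At 3 µM the log2 signal of PIK3R1 212239_at in SYO-1 stood apart from the other 3 lines. Its signal was 1864, where the others lay at 2318 to 2404, and the gap to the nearest line divided by the whole range was 0.857. Of 42 such sets of 4 lines checked, 1 was marked, and chance marks about 1 in 20.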

How the results depend on the processing

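At 3 µM against 0 µM, 5 to 7 probe sets passed when 1 line was left out and 3 with a filter at the 65th percentile, which left 12 probe sets. PIK3R3, PIK3IP1 221756_at and PIK3C2A 241905_at passed in every alternative that tested them except the model with no replicate block. Of these, PIK3IP1 221756_at had passed the main filter only through its treated arrays, and its change ran from 1.82 to 3.24 over the alternatives. The model with no replicate block, which leaves the cell line out, gave 0 probe sets and 0 genes in each dose comparison. Over all probe sets it gave 582 calls at 3 µM and 0 in the other comparisons. At 0.3 µM against 0 µM, 0 probe sets passed with no filter, with the 65th percentile filter and without variance moderation, and 0 to 1 with 1 line left out. From 0.3 to 3 µM, 2 passed with no filter and without variance moderation and 2 to 3 with 1 line left out.

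PIK3IP1 221757_at passed at 3 µM in 7 of 14 alternatives and PIK3R1 212240_s_at in 7 of 13. PIK3C2B and PIK3C2A 1569022_a_at each passed in 1. The direction turned only for changes that did not pass. Without quantile normalization these were 0.010 (PIK3CD 211230_s_at) and -0.0015 (PIK3C2A 213070_at) at 3 µM, 0.033 (PIK3CB 212688_at) and 0.064 (217620_s_at) at 0.3 µM, and 0.063 (PIK3CD 211230_s_at), 0.017 (PIK3C2A 226094_at) and 0.0017 (1553694_a_at) from 0.3 to 3 µM. With the higher floor PIK3CD 211230_s_at changed by 0.020 from 0.3 to 3 µM. With all probe sets of a gene averaged, the dim ones included, PIK3C2A changed by -0.020 at 3 µM and PIK3R1 by 0.088 at 0.3 µM and -0.31 from 0.3 to 3 µM.

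Leaving out 1 line gave ranges that cross 0. At 3 µM they were -0.59 to 0.066 for PIK3CD 211230_s_at, -0.024 to 0.12 for PIK3C2A 213070_at, -0.12 to 0.0038 for PIK3R1 212239_at and -0.22 to 0.0080 for PIK3CB 212688_at. At 0.3 µM they were -0.056 to 0.026 for PIK3CB 212688_at, -0.15 to 0.057 for 217620_s_at, -0.15 to 0.030 for PIK3R1 212239_at and -0.087 to 0.0010 for PIK3C2A 213070_at. From 0.3 to 3 µM they were -0.18 to 0.10 for PIK3CD 211230_s_at, -0.078 to 0.13 for PIK3R1 212239_at, -0.057 to 0.026 for PIK3C2A 226094_at, -0.20 to 0.0080 for PIK3CB 212688_at and -0.033 to 0.41 for PIK3IP1 221757_at. The cause was not tested. Signals near the floor of 12.1 limit the PIK3IP1 221756_at controls, and 1 array per line and dose limits the precision.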

Other observations

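The PIK3CD locus also holds PIK3CD-AS2, a noncoding gene at chr1:9672426-9687574 in GRCh38.p14 (PIK3CD spans 9627258 to 9729114). It was chosen for description after its own values had been seen, so its p-values are not those of a planned test. Probe set 1557339_at had untreated signals of 67.8 in Fuji, 9.80 in Aska-SS, 78.1 in Yamato-SS and 154 in SYO-1. At 3 µM these were 206, 41.5, 138 and 299 in the same order, so each line was higher. The Aska-SS control lay under the floor of 12.1 and was raised to it, and Aska-SS at 3 µM stayed below the filter of 65.1, so the size of its change depends on the floor. The log2 change was 1.29 (SE 0.26, limma adjusted p = 0.00212), and 0.26 at 0.3 µM (limma adjusted p = 0.591). The second PIK3CD-AS2 probe set, 1557341_x_at, changed by 0.54 at 3 µM (SE 0.28, limma adjusted p = 0.152), higher in 3 lines and lower in Yamato-SS. PIK3CD-AS1 was not tested, with signals of at most 69.5. The same holds for PIK3IP1-DT, looked at in the same step, with signals of at most 45.9.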
